A study of Mus musculus with 9 samples.

Results

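Interleukin-2 (IL-2) is a growth factor of activated T cells, and the measurements described here set mouse CD8+ T cells kept for 4 days in IL-2 at 10 ng/ml against CD8+ T cells kept for 4 days with no cytokine. Both groups were then stimulated again for 4 h in the absence of cytokine, so every value compares restimulated cells after different cultures. The data are 3 of the 9 two-colour oligonucleotide arrays of the series, chosen by their titles and numbered as biological replicates 1 to 3. The other 6 arrays hold the same comparison for IL-15 and IL-21 at 10 ng/ml, 3 each. The labels give no strain, genotype, age or first stimulus, nor the agent of the restimulation, and they do not say whether arrays with one replicate number carry the same untreated RNA.

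IL-2 binds a receptor made of IL-2Rα, IL-2Rβ and the common gamma chain, and signals through JAK1 and JAK3 to the transcription factor STAT5, and through the PI3K-mTOR and MAP kinase pathways. In CD8+ T cells it drives clonal growth and the effector programme, with perforin and granzymes in cytolytic granules. IL-15 shares IL-2Rβ and the common gamma chain, whereas IL-21 shares the common gamma chain alone and signals mainly through STAT3.

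The values are log2 ratios of IL-2 over untreated, so a value of 1 is a ratio of 2, and the probes of a gene were averaged to give 17498 genes. The direction was taken as IL-2 over untreated and is not settled. The design text exchanges the dyes on replicates 2 and 3, while the channel labels do not. Within each replicate number the IL-2 minus IL-21 differences, in which a dye effect cancels, correlated at 0.2, 0.15 and 0.11 between the 3 pairs of replicates, across genes. The IL-15 minus IL-21 differences correlated at 0.12, 0.14 and 0.17, and the IL-2 minus IL-15 differences, at 0.04, −0.04 and −0.02, gave no sign either way. The first and second sets were read as 1 orientation for all arrays. They cannot show whether that orientation is cytokine over untreated. Were that orientation the opposite one, every sign below would turn. A log base of 2 is assumed from the range of the values. A change in a gene's RNA per cell and a change in the share of cells that hold it cannot be told apart in these bulk samples.

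The 3 IL-2 arrays differed from one another. Across all 17498 genes the correlation was 0.1 between replicates 1 and 2, −0.21 between replicates 1 and 3, and 0.24 between replicates 2 and 3, as a description across genes that are not independent. Replicate 3 had 1837 genes above 1, against 521 on replicate 2 and 249 on replicate 1. Replicate 1 had the most genes below −1, with 514 against 84 and 174. Replicate 1 is also the array whose dyes the design text gives the other way round.

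Of 17498 genes, 133 rose in IL-2 cells (0.76%) and 7 fell (0.04%) at an adjusted p of 0.05 (limma over all 9 arrays, Benjamini-Hochberg adjustment). All 140 had one sign on the 3 arrays, which their choice by a test of these same values largely sets. Of all genes 2674 lay above 0 on the 3 arrays (15.3%) and 1586 below it (9.06%). The 133 genes that rose had a median change of 1.38, the smallest being 0.7, and 67 of them lay above 1 on every array. At an unadjusted p under 0.05 there were 1184 genes higher (6.77%) and 359 lower (2.05%). With the replicate number as a block, 303 genes rose (1.73%) and 39 fell (0.223%). The block takes out spread that arrays of one number share, so a gene that varies widely between replicates can pass with it. Blocked values for IL-2 over untreated are therefore given below only as an alternative setting. Leaving out 1 IL-2 array changed the counts: 72 genes rose and 25 fell without IL-2 replicate 1, 6 rose and 0 fell without IL-2 replicate 2 (187 lower at an unadjusted p under 0.05), and 6 rose and 0 fell without IL-2 replicate 3 (210 lower at that p). The lowest of the 3 values belonged to replicate 1 for 58 of the risen genes, to replicate 2 for 54 and to replicate 3 for 21.

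**Figure D1:**
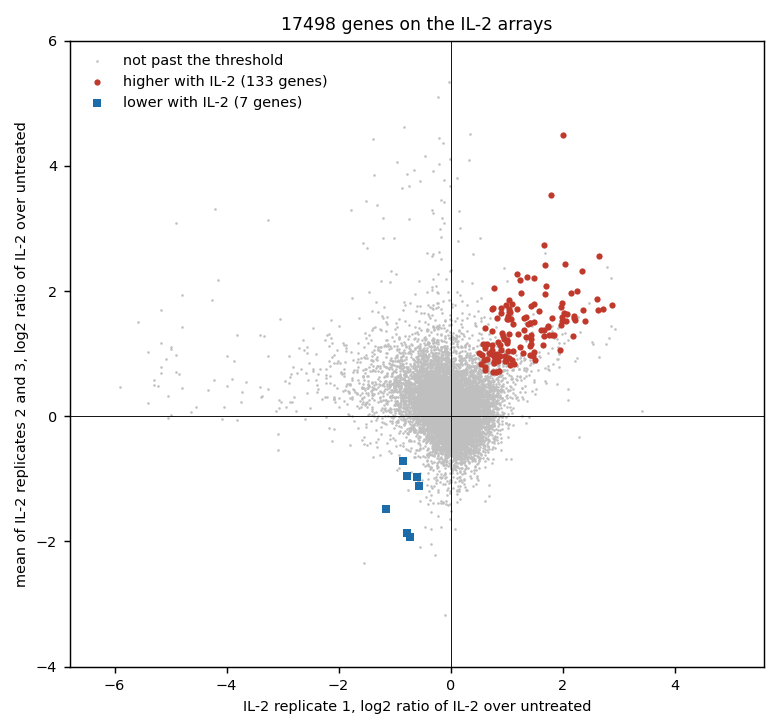
Each point is 1 of 17498 genes, with the log2 ratio of IL-2 over untreated on replicate 1 on the horizontal axis and the mean of replicates 2 and 3 on the vertical axis. The 133 genes that rose (red) lie in the upper right, and the 7 that fell (blue squares) lie in the lower left. Their choice by a test of these same values largely sets these places. Grey points are genes not past the threshold and spread far to the left on replicate 1. Some of them, such as Gzma and Gzmb, lie among the red points.

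Among genes for secreted proteins, Csf2, Il24 and Il3 were among the 4 genes with the greatest rises. Csf2, which encodes the granulocyte-macrophage growth factor GM-CSF, had log2 ratios of 2.01, 4.81 and 4.17 on replicates 1, 2 and 3. Its mean rise of 3.66 ± 0.54 (limma SE, n = 3, as for the means that follow) had an adjusted p of 0.0242. All 3 arrays lay far above 0, with replicate 1 well below the other two. Il24, of the IL-10 family, had 1.79, 3.2 and 3.87 and rose by 2.95 ± 0.34 (adjusted p = 0.0122). Il3, a growth factor for blood progenitors and mast cells, had 1.66, 2.85 and 2.62 and rose by 2.38 ± 0.33 (adjusted p = 0.0192). Replicate 1 was again the lowest for both, and no array came near 0.

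Of the 10 measured growth factor, type 2 and IL-10 family cytokine genes, these 3 rose and none fell. The median of the 10 was 0.94, against 0.05 for all genes. Without IL-2 replicate 1, 2 or 3 in turn, 3, 0 and 0 of them rose. Il10, for the anti-inflammatory cytokine IL-10, had 0.95, 1.46 and 3.28 with a mean of 1.90 and missed the threshold (adjusted p = 0.146), but passed with the replicate block (adjusted p = 0.0173). Ccl1, a chemokine that acts through CCR8, had 1.71, 2.5 and 1.66 and was the 1 of 11 chemokine genes to rise, by 1.96 ± 0.25 (adjusted p = 0.0152). Xcl1, another chemokine of CD8+ T cells, had 0, −1.88 and −1.14 and did not pass (adjusted p = 0.251).

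The effector cytokines most often measured in these cells did not pass. Ifng, for interferon gamma, had 1.01, 0.93 and 0.16 (adjusted p = 0.302). Tnf had 0.27, 0.44 and 0.06 (adjusted p = 0.726), and Il2 itself 0.05, 0.37 and −0.12 (adjusted p = 0.978). Lta, which encodes lymphotoxin alpha, was the 1 of 12 effector cytokine and TNF family genes to rise. Its ratios of 0.81, 0.74 and 0.67 were close together, with a mean of 0.74 ± 0.13 (adjusted p = 0.0449). It did not pass with the replicate number as a random effect (adjusted p = 0.0579) or without any 1 of the IL-2 arrays.

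**Figure D2:**
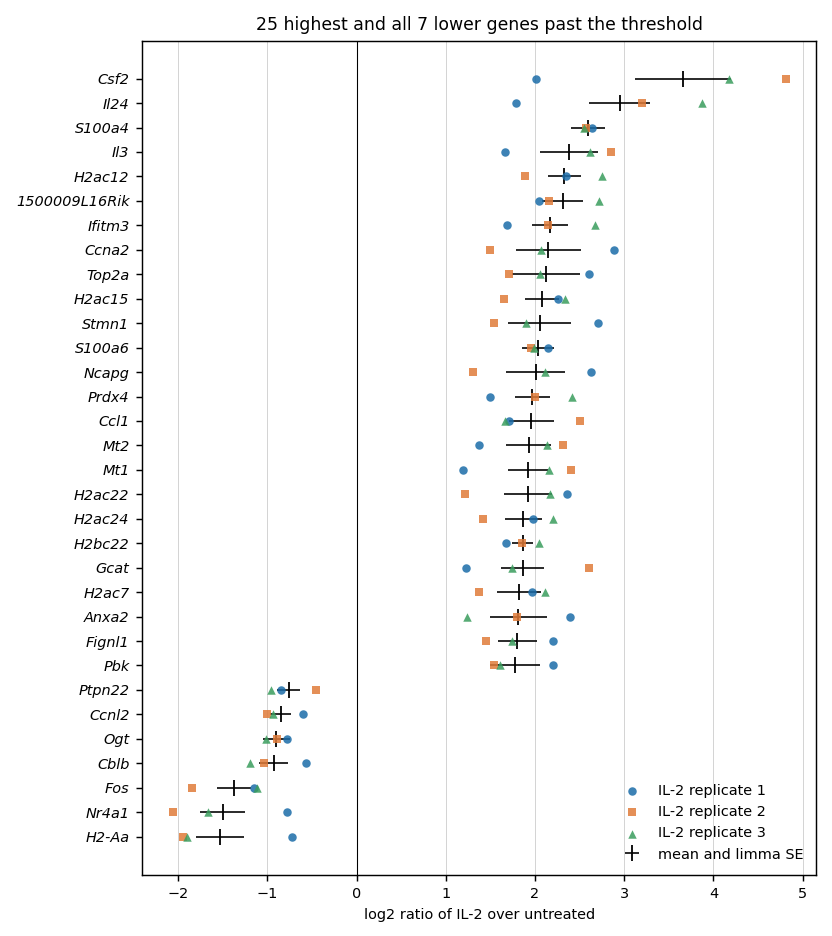
Log2 ratio of IL-2 over untreated on each of the 3 IL-2 arrays (symbols), with the mean and limma SE (black), for the 25 genes with the greatest rises and all 7 genes that fell. Csf2 stands at the top with 3.66, S100a4 has its 3 arrays between 2.55 and 2.64, and H2-Aa is lowest at −1.53.

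Of 22 cytolytic granule genes 1 rose and none fell, and 11 lay above 0 on all 3 arrays. Prf1, for the pore-forming protein perforin, had 0.73, 2.12 and 1.3 and rose by 1.38 ± 0.22 (adjusted p = 0.0359), and was the gene that passed. Gzma, a granzyme protease, had 2.79, 1.16 and 3.62, and Gzmb, the granzyme that activates caspases, had 1.69, 3.32 and 1.91. Every array was above 0 for both, with means of 2.52 and 2.31, yet neither passed (adjusted p = 0.0609 and 0.0597), and both passed with the replicate block (0.00886 and 0.0115). The median of the granule list was 0.37, and 4 of its genes rose with the block. Srgn, for the granule proteoglycan serglycin, had 0.4, −1.08 and −1.14 (adjusted p = 0.656).

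Of the receptor and feedback genes of the IL-2 pathway, none passed the threshold. This held for all 12 measured receptor, JAK and STAT genes, of which 2 had an upward and 2 a downward unadjusted p under 0.05. Of all genes, 6.77% had an upward and 2.05% a downward p of that size. Il2ra had 0.7, 0.37 and 0.06 (adjusted p = 0.537), and Il2rb 0.79, 0.32 and 0.55 (adjusted p = 0.287). It also held for 8 genes of SOCS proteins, which block JAK signalling, with 2 upward at that p. Socs2 had 1.67, 1.19 and 1.08, all 3 above 1, with an adjusted p of 0.0714, and Cish, induced by STAT5, had 0.42, 0.31 and 0.36 (adjusted p = 0.406). Among 16 STAT5 targets, 7 had an upward (43.8%) and 2 a downward (12.5%) unadjusted p under 0.05. Past the threshold, 2 rose (12.5%, against 0.76% of all genes) and none fell. They were Cdkn1a, for the cell cycle inhibitor p21, with 1.48, 1.36 and 2.24 and a mean of 1.69 ± 0.17 (adjusted p = 0.00593), and Id2, a regulator of effector cells, with 1.01, 1.28 and 1.13 and a mean of 1.14 ± 0.18 (adjusted p = 0.0293). Bcl2 had 0.27, −0.07 and −0.02 (adjusted p = 0.979), and none of 15 BCL2 family genes passed.

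Of 16 effector transcription factor genes, Id2 and Batf rose. Batf, an AP-1 family partner of IRF4, had 1.07, 0.93 and 2.17 and rose by 1.39 ± 0.24 (adjusted p = 0.0437). The T-box factors that direct effector fate did not pass: Tbx21 had 0.57, −0.54 and −0.49 (adjusted p = 0.951) and Eomes 0.41, 0.42 and 0.22 (adjusted p = 0.532). Icos, a costimulatory receptor, had 1, 1.27 and 1.84 and rose by 1.37 ± 0.19 (adjusted p = 0.0192), the 1 of 14 costimulatory and activation genes to do so. Havcr2, for the inhibitory receptor TIM-3, had 1.04, 2.04 and 1.68 and rose by 1.59 ± 0.19 (adjusted p = 0.0123), the 1 of 13 inhibitory receptors. Cd274, for the ligand PD-L1, had −0.31, −1.7 and −1.07 and did not pass (adjusted p = 0.107).

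Mitosis, DNA replication and histone genes together held 46 of the 133 risen genes. Of 56 mitosis genes measured, 16 rose and none fell, and 47 had an unadjusted p under 0.05 in the upward direction, beside 6.77% of all genes. The list's median was 1.08, against 0.05 for all genes, and its medians on replicates 1, 2 and 3 were 1.5, 0.61 and 1.05. Without IL-2 replicate 1, 2 or 3 in turn, 0 of the 56 passed each time, while the list's median stayed between 0.87 and 1.2. After quantile normalization 0 of the 56 passed, with a median of 1.1.

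Ccna2, for cyclin A2, had 2.88, 1.5 and 2.07 and rose by 2.15 ± 0.36 (adjusted p = 0.0396). Top2a, for the topoisomerase that untangles sister chromatids, had 2.61, 1.71 and 2.05 and a mean of 2.12 ± 0.38 (adjusted p = 0.0472). Replicate 1 was highest and replicate 2 lowest for both genes, and the same order held for Ncapg and Ncaph, which encode condensin subunits, with means of 2.01 and 1.76. The spindle checkpoint kinase gene Bub1b had 1.97, 1.58 and 1.34 (mean 1.63 ± 0.20, adjusted p = 0.0149). Cdk1, the kinase that starts mitosis, had 1.49, 0.83 and 1.21 (mean 1.18 ± 0.21, adjusted p = 0.0454), and Ube2c, an ubiquitin-conjugating enzyme of the anaphase-promoting complex, had 2.19, 1.16 and 1.4 (mean 1.58 ± 0.28, adjusted p = 0.0472). The proliferation marker gene Mki67 had 0.35, −0.08 and 0.01 (adjusted p = 0.982), and Nek2 had −2.14, 0.97 and 2.12, with its arrays on both sides of 0 (adjusted p = 0.982).

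Promoters of cell cycle genes often carry CCAAT boxes, bound by the factor NF-Y, and the CHR element, bound by complexes that repress or activate cell cycle genes. The 250 bases before the start of 3 risen mitosis genes and 1 risen histone gene are shown because these motifs recur in them. The ratios of these genes were above 0 on all 3 arrays. Windows picked for their motifs do not show how common the motifs are. The sequences are RefSeq promoters of GRCm38.p6, 5′ to 3′ on the strand of the gene, and capitals mark CCAAT and TTTGAA on either strand. Top2a lies at chr11:99024190-99024439 on the minus strand with 6 CCAAT and 2 CHR matches, and Cdk1 at chr10:69352913-69353162 on the minus strand with 3 and 2. Ube2c lies at chr2:164769679-164769928 on the plus strand with 6 and 1, of which a pair of CCAAT matches overlap, and H2bc22 at chr13:21787238-21787487 on the plus strand with 4 and 2.
Top2a: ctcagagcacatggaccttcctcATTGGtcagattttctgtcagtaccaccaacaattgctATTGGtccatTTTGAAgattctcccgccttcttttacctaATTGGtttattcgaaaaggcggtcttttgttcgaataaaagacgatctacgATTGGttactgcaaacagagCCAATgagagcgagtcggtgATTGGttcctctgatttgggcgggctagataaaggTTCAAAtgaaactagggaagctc
Cdk1: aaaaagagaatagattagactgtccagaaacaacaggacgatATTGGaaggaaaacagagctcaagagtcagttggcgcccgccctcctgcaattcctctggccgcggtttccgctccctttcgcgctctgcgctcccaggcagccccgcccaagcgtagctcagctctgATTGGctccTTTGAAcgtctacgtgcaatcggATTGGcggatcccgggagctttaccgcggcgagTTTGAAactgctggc
Ube2c: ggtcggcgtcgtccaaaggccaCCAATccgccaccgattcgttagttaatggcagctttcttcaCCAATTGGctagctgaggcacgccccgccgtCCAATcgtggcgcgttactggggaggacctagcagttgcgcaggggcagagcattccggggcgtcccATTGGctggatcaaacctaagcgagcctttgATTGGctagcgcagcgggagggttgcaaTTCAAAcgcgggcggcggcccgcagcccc
H2bc22: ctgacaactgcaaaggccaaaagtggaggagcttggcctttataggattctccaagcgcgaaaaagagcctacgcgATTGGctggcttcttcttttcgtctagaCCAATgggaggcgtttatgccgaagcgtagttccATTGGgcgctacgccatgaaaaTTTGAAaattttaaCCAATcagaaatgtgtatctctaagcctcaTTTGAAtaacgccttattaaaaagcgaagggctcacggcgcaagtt

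CCAAT stood in 11 of 14 windows of the risen mitosis genes (78.6%) and in 35.0% of 17234 windows of all measured genes. TTTGAA stood in 7 of the 14, against 2246 of the 17234. Of the 47 windows of the whole mitosis list, risen or not, 74.5% held CCAAT and 36.2% held TTTGAA. The TTTGAA share depends on the window. With the 50 bases after the start added, a choice made after the first values were seen, it was 78.6% for the risen mitosis genes, 68.1% for the list and 14.5% for all genes. An E2F motif (TTTNNCGC, either strand) stood in 6 of 18 windows of risen histone genes (33.3%) and in 5.62% of all. The whole histone list was not searched as a set, so the 33.3% cannot be tied to the rise. The motif stood in 23.5% of windows of risen replication genes and 24.4% of that whole list. For mitosis genes the shares were 14.3% and 8.51%. The STAT5 motif TTCNNNGAA stood in 6.08% of the windows of all risen genes and in 6.49% of all windows. These matches are descriptions of letters, not measured binding.

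Of 46 DNA replication genes measured, 12 rose and none fell, and the list median was 0.95. At an unadjusted p under 0.05, 41 were higher (89.1%, against 6.77% of all genes). Here the arrays were closer, with list medians of 1.06, 0.91 and 0.8. The origin licensing gene Cdc6 had 1.43, 2.15 and 1.37 (mean 1.65 ± 0.24, adjusted p = 0.0238), and the helicase partner gene Cdc45 had 1.73, 1.18 and 1.69 (mean 1.54 ± 0.24, adjusted p = 0.0293). The ribonucleotide reductase genes Rrm1 and Rrm2, which supply deoxynucleotides, rose by 1.47 and 1.22, and the thymidylate synthase gene Tyms by 1.11. The probes of some genes lay far apart, with means over the arrays between 0.12 and 2.32 for the 4 probes of Rrm2, between 0.12 and 2.06 for the 4 of Tyms, and 0.15 and 2.2 for the 2 of the mitosis gene Cdk1. Uhrf1 and Dnmt1, which maintain DNA methylation through replication, rose by 1.55 and 1.25. The MCM helicase genes were positive on every array without passing, for example Mcm6 with 1.3, 1.22 and 0.63 (adjusted p = 0.0541). With the replicate block 25 of the 46 rose, against 12 without it, and without IL-2 replicate 1, 2 or 3 in turn 3, 0 and 0 rose.

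Of 66 histone genes, 18 rose and none fell, with a list median of 0.58. The 18 belonged to all 4 core families, H2A, H2B, H3 and H4, and most lie in replication-dependent clusters, which are transcribed in S phase. H2ac12 had 2.35, 1.89 and 2.75 and rose by 2.33 ± 0.19 (adjusted p = 0.0037). H2bc22 had 1.68, 1.85 and 2.04 and a mean of 1.86 ± 0.12, with the smallest adjusted p of the genes that rose (0.00183). H2az1, the replication-independent variant H2A.Z, had 1.41, 1.51 and 1.48 (mean 1.47 ± 0.14, adjusted p = 0.00527). The copies of a histone family are nearly identical in sequence, so probes may not separate them and single values are uncertain. Histone genes that rose numbered 10, 3 and 2 without IL-2 replicate 1, 2 or 3 in turn.

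Among genes that restrain division, Cdkn1a was the 1 of 7 CDK inhibitor genes to rise. An upward unadjusted p under 0.05 was found for 4 of the 7, and for 6.77% of all genes. Cdkn2d, for p19-INK4d, had 0.26, 0.86 and 1.39 (adjusted p = 0.146, and 0.0376 with the block), and Cdkn1b, for p27, had −0.51, 0.3 and 0.68 (adjusted p = 0.96). Cdkn1a was also the 1 of 19 p53 targets to rise. Of 16 tubulin genes, Tubb6 rose with 0.78, 2.4 and 1.69 and Tuba1a with 1.34, 1.83 and 1.35. With the block 7 of 16 rose, against 2 without it.

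**Figure D3:**
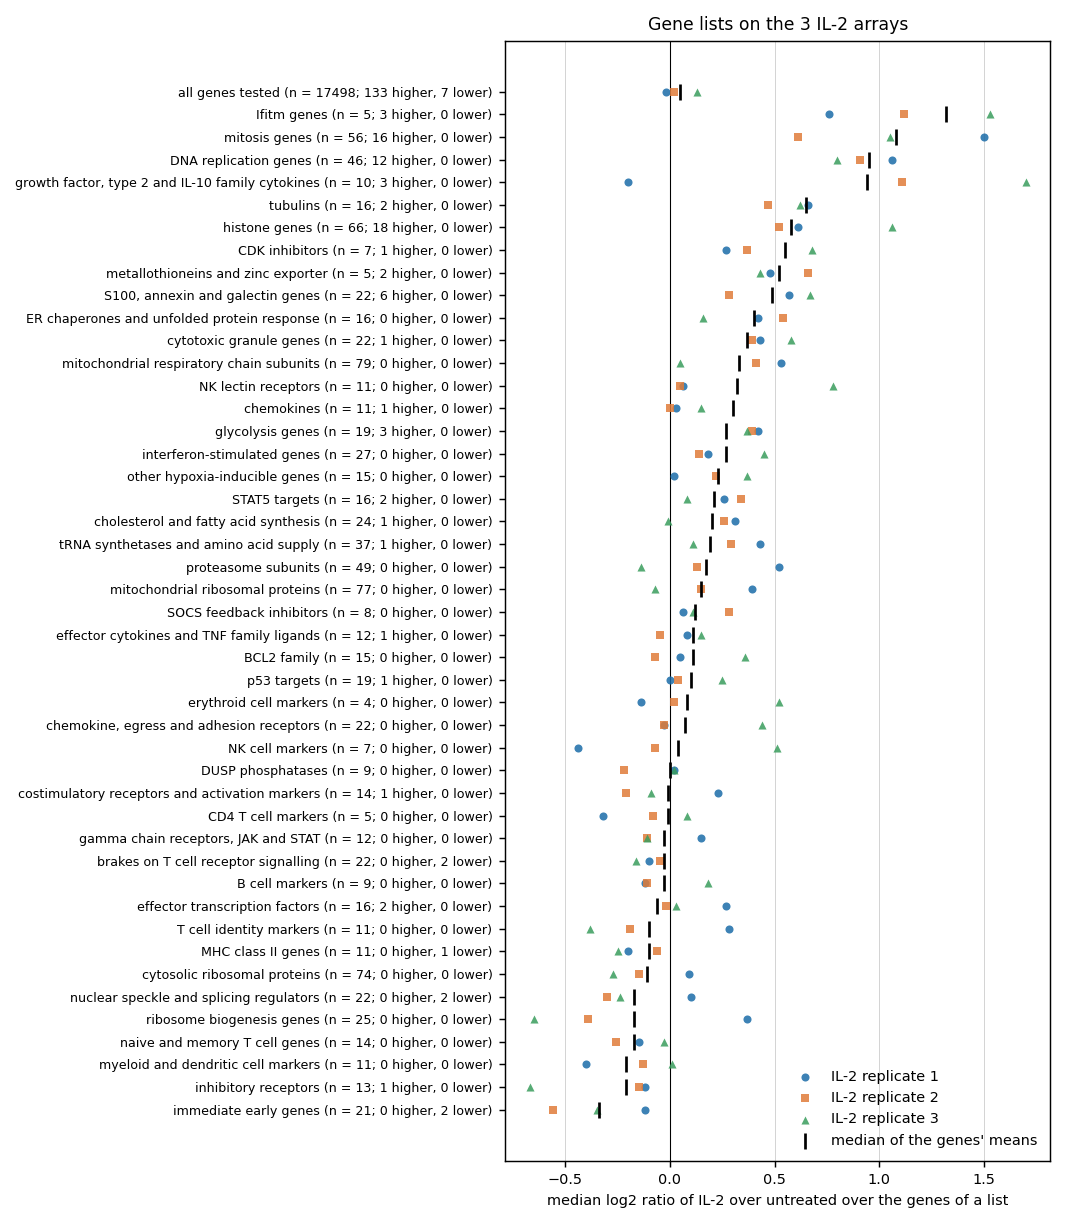
Median log2 ratio of IL-2 over untreated over the genes of each list on each IL-2 array (symbols) and over the genes' means (black), ordered by that median, with all genes at the top. Mitosis and DNA replication genes lie right of 0.6 on every array, and the growth factor cytokine list is negative on replicate 1 (−0.2) and positive on replicates 2 and 3.

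Calcium-binding and membrane-associated proteins formed another group. Of 22 S100, annexin, galectin and related genes, 6 rose and none fell, with a median of 0.49. S100a4, linked to cell motility, had 2.64, 2.57 and 2.55 and rose by 2.59 ± 0.19 (adjusted p = 0.00266), the tightest of the large changes. S100a6 had 2.15, 1.96 and 1.99 and a mean of 2.03 ± 0.18 (adjusted p = 0.00527). Anxa2, a phospholipid-binding annexin, had 2.39, 1.8 and 1.24 (mean 1.81 ± 0.32, adjusted p = 0.0472), and the galectin genes Lgals1 and Lgals3 rose by 1.5 and 1.45. Vim, the intermediate filament vimentin, rose by 1.16. Of the 22, 3, 1 and 1 rose without IL-2 replicate 1, 2 or 3 in turn. Of 5 Ifitm genes, which encode membrane proteins that restrict virus entry, 3 rose. Ifitm3 had 1.69, 2.15 and 2.67 (mean 2.17 ± 0.20, adjusted p = 0.00527), and Ifitm2 and Ifitm1 rose by 1.41 and 1.32. With the replicate number as a random effect 1 of the 5 passed, Ifitm3, and without IL-2 replicate 1, 2 or 3 in turn 3, 0 and 1 passed. Of 27 other interferon-stimulated genes 0 passed, and the median was 0.27. An upward unadjusted p under 0.05 was found for 4 of them (14.8%, against 6.77% of all genes).

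Of 5 genes in the list of metallothioneins, which bind zinc and copper, and a zinc exporter, 2 rose. Mt1 had 1.19, 2.4 and 2.16 and a mean of 1.92 ± 0.22 (adjusted p = 0.0123), and Mt2 had 1.37, 2.31 and 2.13 and a mean of 1.93 ± 0.25 (adjusted p = 0.0152). Replicate 1 was lowest for both. The 250 bases before Mt1, at chr8:94178839-94179088 on the plus strand, are shown since metal response elements, to which the zinc sensor MTF-1 binds, are the known control of this gene. Capitals mark the element's core, searched as TGCACNC or TGCGCNC on either strand, with 1 match here. It stood in 3 of 4 metallothionein windows (75.0%), risen or not, and in 26.0% of all windows. Among windows of risen genes, in the 250 bases, it stood in 52.9% for DNA replication, 38.9% for histone and 28.6% for mitosis genes. The core is therefore not particular to metallothioneins.
Mt1: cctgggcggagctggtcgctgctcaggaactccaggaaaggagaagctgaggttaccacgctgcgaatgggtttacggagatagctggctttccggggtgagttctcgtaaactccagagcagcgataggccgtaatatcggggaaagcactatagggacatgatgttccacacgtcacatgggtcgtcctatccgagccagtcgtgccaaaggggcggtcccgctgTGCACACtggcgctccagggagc

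Metabolic genes rose in small numbers. Of 19 glycolysis genes 3 rose and none fell, with a median of 0.27. Pgk1, phosphoglycerate kinase, had 1.1, 2.07 and 1.52 and a mean of 1.57 ± 0.24 (adjusted p = 0.0293). Aldoa, aldolase, had 1.12, 1.82 and 1.13 and a mean of 1.36 ± 0.16 (adjusted p = 0.0123). Slc16a3, the lactate exporter MCT4, had 0.78, 0.77 and 1.14 and a mean of 0.90 ± 0.12 (adjusted p = 0.0152). Without IL-2 replicate 1, 2 or 3 in turn, 3, 0 and 0 of the list rose, and with the block 5 rose. Of 79 respiratory chain genes none passed, although 25 had an upward unadjusted p under 0.05 (31.6%, against 6.77% of all genes). The median of that list was 0.33, with array medians of 0.53, 0.41 and 0.05, and with the block 4 rose. In the tRNA synthetase and amino acid list, Aars was the 1 of 37 to rise, by 0.70, and Ebp of sterol synthesis the 1 of 24 in the lipid list, by 0.72, and with the block 5 and 2 genes of these lists rose. None of 49 proteasome, 77 mitochondrial ribosomal, 74 cytosolic ribosomal, 25 ribosome biogenesis, 16 endoplasmic reticulum chaperone and 15 other hypoxia-inducible genes passed. At an unadjusted p under 0.05, 5, 9, 3, 0, 8 and 3 genes of these lists were higher, in that order. In the same order 0, 0, 7, 1, 1 and 0 were lower. The shares over all genes were 6.77% higher and 2.05% lower. The chaperone list stood furthest above the upward share, with 8 of 16 higher and a median of 0.4. The share higher was 10.2% for proteasome, 11.7% for mitochondrial ribosomal and 4.05% for cytosolic ribosomal genes. Of the cytosolic ribosomal genes 9.46% were lower.

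The 7 genes that fell were Fos, Nr4a1, H2-Aa, Cblb, Ogt, Ccnl2 and Ptpn22. Fos, an immediate early gene that encodes part of AP-1, had −1.15, −1.85 and −1.12 and a mean of −1.37 ± 0.19 (adjusted p = 0.0192), and was the 1 fallen gene below −1 on every array. Nr4a1, for the nuclear receptor Nur77, which T cell receptor signals induce, had −0.78, −2.06 and −1.66 and a mean of −1.5 ± 0.25 (adjusted p = 0.0404). Of 21 immediate early genes these 2 fell and none rose. Another 7 had a downward unadjusted p under 0.05, as did 2.05% of all genes, and 2, Ier3 (mean 0.74) and Junb (mean 0.28), an upward one. The list median was −0.34, and with the block 5 of the 21 fell. In turn without IL-2 replicate 1, 2 or 3, 2, 0 and 0 of them fell. Fosb had −0.37, −0.93 and −0.76 (adjusted p = 0.0654) and Myc 0.24, −0.82 and −1.36, with replicate 1 on the other side of 0 (adjusted p = 0.553).

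Cblb, an E3 ubiquitin ligase that dampens T cell receptor signals, had −0.57, −1.04 and −1.2 and fell by 0.93 on the log2 scale (SE 0.16, adjusted p = 0.038). Ptpn22, a phosphatase with the same role, had −0.85, −0.46 and −0.96 and fell by 0.76 (SE 0.13, adjusted p = 0.0418). They were the 2 of 22 brakes on receptor signalling to fall, and the list median was −0.03, against 0.05 for all genes. Ccnl2, a cyclin of nuclear speckles, had −0.6, −1 and −0.94, and Ogt, the enzyme that adds O-linked N-acetylglucosamine to proteins, had −0.78, −0.89 and −1.02. Both stand in the list of 22 nuclear speckle and splicing regulators, of which 20 did not pass. H2-Aa, the alpha chain of an MHC class II molecule, had −0.72, −1.95 and −1.9 and a mean of −1.53 ± 0.27 (adjusted p = 0.0472), the 1 of 11 class II genes to fall. Cd74, the class II invariant chain, had −0.55, −0.75 and −1.05 (adjusted p = 0.0802), and passed with the block (adjusted p = 0.0173). The class II list had a median of −0.1, and Ciita, the activator of class II genes, had −0.19, 6.2 and −0.23, a mean of 1.92 that replicate 2 alone set (adjusted p = 0.693).

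None of 14 naive and memory T cell genes passed. A downward unadjusted p under 0.05 was found for 4 (28.6%, against 2.05% of all genes), with none upward. With the block, 2 of the 14 fell. Id3, a regulator of long-lived cells, had −0.17, −1.8 and −1.75 (adjusted p = 0.197, and 0.0174 with the block), and Cd27 had −0.13, −0.91 and −1.87 (adjusted p = 0.402, and 0.0169 with the block). Replicate 1 was near 0 for both. Ccr7 had −0.11, −0.1 and 0.39 (adjusted p = 0.978), and Klf2, the factor behind lymph node homing genes, −0.43, −0.47 and −0.01 (adjusted p = 0.86). Tcf7 and Il2rg were not analysed here.

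Ratios give no levels, so the presence of the CD8+ T cell markers could not be checked. Cd8a had 0.34, −0.29 and −0.64 (adjusted p = 0.904) and Cd3e 0.44, −0.37 and −0.37 (adjusted p = 0.978). None of the 11 T cell identity, 9 B cell, 11 myeloid and dendritic, 5 CD4 T cell, 7 NK cell and 4 erythroid markers measured passed. The list medians were −0.1, −0.03, −0.21, −0.01, 0.04 and 0.08 in that order. H2-Aa is also expressed by B and dendritic cells. Mpeg1, the lowest of the 11 myeloid and dendritic markers, had −0.1, −0.68 and −1.28. The means of that list ran from −0.68 to 0.08, with 2 of its genes below 0 and 0 above 0 on all 3 arrays. The means of the 9 B cell markers ran from −0.1 to 0.18. The part of other cells in the ratio of H2-Aa was not tested.

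Of the 140 genes past the threshold, 58 stood in no list. The following were picked from them after their values were seen. A set of 18 encode other proteins of cell division and DNA repair, such as Kntc1 at kinetochores, with 1.38, 1.28 and 1.68 (mean 1.45 ± 0.13, adjusted p = 0.00527), and Fignl1 of homologous recombination, with 2.2, 1.45 and 1.74 (mean 1.80 ± 0.22, adjusted p = 0.0127). Their means ran between 0.73 and 1.8. Another 5 act on thiols and redox balance, among them Prdx4, a peroxiredoxin of the endoplasmic reticulum, with 1.49, 2 and 2.41 (mean 1.97 ± 0.20, adjusted p = 0.00593), and Gclm, a subunit of the enzyme that starts glutathione synthesis, with a mean of 0.85. Il18r1 and Il18rap, the receptor chains for IL-18, both rose. Il18r1 had 1.41, 1.38 and 1.61 (mean 1.47 ± 0.18, adjusted p = 0.0152) and Il18rap had 0.9, 0.65 and 1.47 (mean 1.01 ± 0.17, adjusted p = 0.038). Capn2, the protease m-calpain, had 1.25, 1.81 and 2.13 (mean 1.73 ± 0.18, adjusted p = 0.00593), and 1500009L16Rik, which the files name by this identifier, had 2.04, 2.16 and 2.72 (mean 2.31 ± 0.23, adjusted p = 0.00593).

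A few genes varied most among the 3 arrays. Pgm1, as the platform annotation names it, had 0.35, 8.78 and 0.23, Adam2 had −4.26, −0.37 and 4.1, and Defb37 had −4.9, −0.04 and 6.2. None passed, and 1 array set each mean or the arrays pointed in opposite directions.

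IL-2 differed from IL-21 in 14 genes, tested as the difference of the IL-2 and IL-21 ratios in the same limma fit. That fit does not pair the arrays by replicate number. It gave 13 genes higher with IL-2 (0.0743%) and 1 lower (0.00571%). At an unadjusted p under 0.05 there were 781 higher (4.46%) and 265 lower (1.51%). With the replicate block, which pairs the arrays and so is the closer test of this difference, 87 were higher (0.497%) and 5 lower (0.0286%). The adjusted p-values that follow are those of the unpaired fit. The arrays may share untreated samples between cytokines. H2ac12 had 2.35, 1.89 and 2.75 with IL-2, against −0.73, −0.56 and −0.57 with IL-21 (difference 2.95 ± 0.26, adjusted p = 0.0153). Mt2 had 1.37, 2.31 and 2.13 with IL-2, against −0.95, −0.51 and −1.73 with IL-21 (difference 3.00 ± 0.35, adjusted p = 0.0401). Lta had 0.81, 0.74 and 0.67 with IL-2, against −1.26, −0.81 and −1.17 with IL-21 (difference 1.82 ± 0.18, adjusted p = 0.0201). Picked from the 14, each of these genes had all 3 arrays of one cytokine above 0 and all 3 of the other below it. The 14 were called on these same values, so this separation adds no support.

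The other genes higher with IL-2 than with IL-21 were the histone genes H2ac15, H2bc22 and H3c11, the division genes Kntc1, Fignl1, Bub1b and Diaph3, and Mt1, 1500009L16Rik and Scn9a, a sodium channel gene. Satb1, a chromatin organiser of T cells, was the 1 gene lower with IL-2. It had −0.07, −0.16 and 0 with IL-2, against 1.23, 1.65 and 1.37 with IL-21 (difference −1.49 ± 0.19, adjusted p = 0.0476). For the mitosis list the median ratio was 1.08 with IL-2 and −0.29 with IL-21, and for the replication list 0.95 and −0.1, as values with no test of the difference between lists. Without IL-2 replicate 1, 2 or 3 in turn, 5, 2 and 0 genes were higher with IL-2 than with IL-21, and none was lower in any of the 3.

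**Figure D4:**
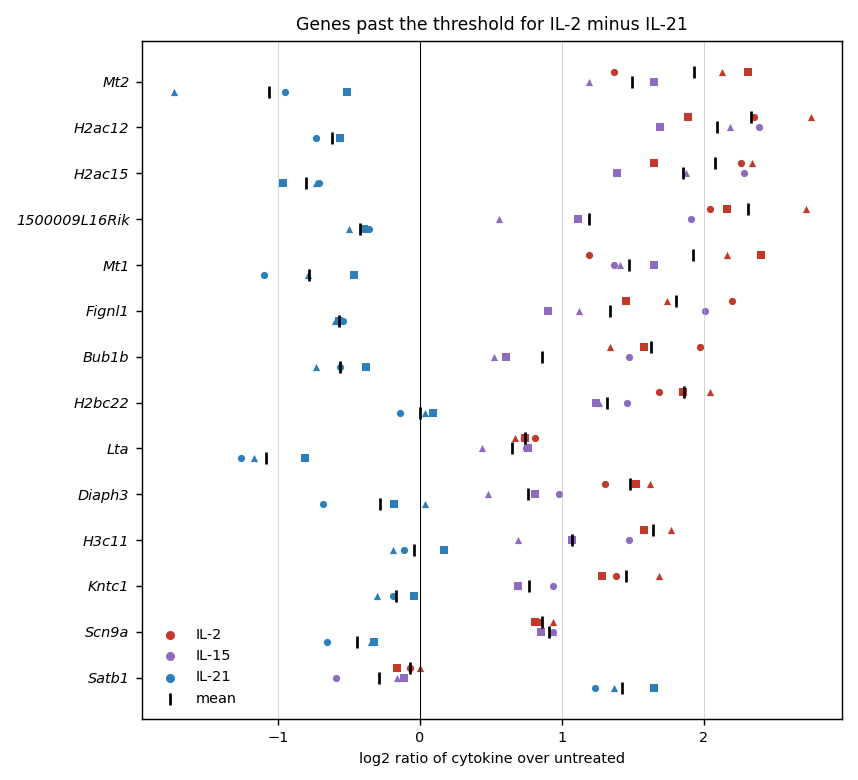
Log2 ratio of cytokine over untreated for the 14 genes past the threshold for IL-2 minus IL-21, with IL-2, IL-15 and IL-21 from the top of each row down, a symbol shape per replicate number and black ticks for means. The 3 IL-2 arrays lie right of the 3 IL-21 arrays for 13 genes and left of them for Satb1. The genes were picked by a test of this difference, which largely sets that separation.

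No gene passed for IL-2 minus IL-15 (0 higher and 0 lower by limma, with and without the block, and 165 and 87 at an unadjusted p under 0.05, 0.943% and 0.497% of genes). The 5 genes with the smallest p were Capn2, Isg15, Sp110, Isg20 and Phf11a. Isg15, an interferon-induced ubiquitin-like protein, had 0.36, 0.94 and 0.91 with IL-2, against 1.64, 2.86 and 2.33 with IL-15 (difference −1.54 ± 0.32, unadjusted p = 0.000935, adjusted p = 1). Capn2 had 1.25, 1.81 and 2.13 with IL-2, against 0.63, 0.48 and 0.4 with IL-15 (difference 1.23 ± 0.25, unadjusted p = 0.00085, adjusted p = 1). Both genes were picked for a small p, so the lack of overlap between their arrays is tied to that choice and adds no support. The interferon-stimulated list had a median of 0.27 with IL-2 and 0.88 with IL-15. The mitosis and replication lists had medians of 1.08 and 0.95 with IL-2, against 0.73 and 0.77 with IL-15. Missing the threshold does not show that IL-2 and IL-15 acted alike.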

How the data were processed

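RNA of cytokine-treated and untreated cells was set against each other on 9 two-colour arrays. Per the labels' protocols, total RNA was purified with Trizol and RNeasy columns and labelled with Amino Allyl MessageAmp II. The authors deposited 1 value per probe and array, read here as a log2 ratio. The scanner, background correction and normalization are not stated in the labels. Intensities were not used, and dim probes are therefore among those tested. Of 36547 probes, 26926 carried 1 gene symbol, 203 several and 9418 were not in the annotation table. After 41 viral control probes were left out, 26885 probes were averaged to 17498 genes.

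limma 3.58.1 (R 4.3.3) was fitted to all 9 arrays with 1 coefficient per cytokine, 6 residual and 2.81 prior degrees of freedom, and Benjamini-Hochberg adjustment over all genes at 0.05. The number of arrays limits the precision. The replicate numbers pair the arrays across cytokines: deviations from the group means correlated between 0.15 and 0.65 for same-numbered arrays. A blocked p-value for IL-2 over untreated ignores whatever varies jointly on arrays of one number. For a difference between cytokines the block pairs the arrays. Alternatives changed the block, dye term, scaling, probe rule, filter, weights and replicates.

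Members and gene lists were chosen with earlier results of these data known, so lists are described by counts and medians. Named genes were the 25 highest and 25 lowest past the threshold, the passing members of each list or else those with the smallest p, a fixed set of IL-2 pathway and effector genes, those that differ between cytokines, and the 5 with the widest range. DNA replication members outside the rule, Srgn, Ciita, Ier3, Junb and the mitosis genes Mki67 and Nek2 were named after their values were seen. Coordinates are those of GRCm38.p6.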

Additional observations from a re-analysis of the deposited data

How the results depend on the processing

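The counts of genes depended on the setting. Of the 88 named genes past the threshold, followed through 1385 values under the alternatives that keep the signs as deposited and measured the gene, 728 kept their side of the threshold, 657 lost it and 0 reversed. For these genes the random block, the small-ratio filter and the 1-probe setting were added after seeing the data. Genes that rose and fell with IL-2 numbered 133 and 7 as reported. They numbered 303 and 39 with the replicate block, 254 and 30 with a dye term, 712 and 147 with array weights, 104 and 5 with a random block, and 82 and 3 over the 11615 genes with 1 probe. Quantile normalization left 19 and 0 and centring each array 99 and 4. With the sign of replicates 2 and 3 turned, or with the IL-2 arrays alone, 0 and 0 remained (579 and 1315, and 803 and 174, at an unadjusted p under 0.05). Leaving out 1 replicate number gave 0 to 60 and 0 to 9, and leaving out 1 IL-2 array 6 to 72 and 0 to 25. Of the 140 genes, 138 also passed with the block, the exceptions being Cenpp and Cdca8 (adjusted p = 0.0516 and 0.0537), 101 with the random block, and 18 under quantile normalization. With the random block Batf, Cdca8, Cdk1, H4c18, H4c9, Ifitm1, Ifitm2, Lta, Nr4a1, Ogt, Prc1, Prf1, Top2a, Tubb6, Ube2s and Uhrf1 missed the threshold among the named genes (adjusted p between 0.0536 and 0.111). With the fixed block, counts in the lists that the text gives without a blocked value differed from the reported ones by at most 1 gene, other than mitosis (23 rose), histone (24) and S100 genes (8). Besides the genes given with a blocked p in the text, it brought Tubb5, Mthfd2, Chac1, Egln3, Nfil3, Klrk1, Cox6a1, Mrpl18, Btg2, Psmb8, Clk1 and Cd83 past the threshold, and it changed no other call of a named gene. All 14 genes that differed from IL-21 also passed with it.

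For IL-2 against IL-21, 13 genes were higher and 1 lower in the fit without pairing. They were 87 and 5 with the replicate block, 178 and 23 with the random block, 85 and 5 with a dye term, 84 and 4 with array weights, 1 and 0 after quantile normalization, 7 and 0 with a filter on small ratios, and 0 and 0 with the signs turned. Over genes with 1 probe 12 were higher and 0 lower. Leaving out 1 replicate gave 0 to 5 and 0. For IL-2 against IL-15 every setting gave 0 and 0. The median over all genes moved between −0.07 and 0.1 across settings, from 0.05. The cause of these changes was not tested, beyond the fewer arrays or genes that some settings hold. Whether low signal lies behind the spread between arrays could not be measured without intensities.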
